A study of Mus musculus with 30 samples.

Results

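The genes described here encode the enzymes that remove superoxide and peroxides in mouse colon: the glutathione peroxidases Gpx1, Gpx2, Gpx3 and Gpx4, the superoxide dismutases Sod1, Sod2 and Sod3, the catalase Cat, and the peroxiredoxins Prdx1 and Prdx6. They were chosen by gene symbol and are 10 of the 46078 genes of the count table. Gpx3 and Sod3 encode secreted enzymes and are set against the 8 genes of intracellular enzymes. Colon RNA was sequenced from 30 C57BL/6J mice in 5 groups of 6, obtained at 5 to 6 weeks of age and kept on their diet for 13 weeks. Females and males received a control diet (CD) with 10% of its energy from fat or a high-fat diet (HFD) with 60%, and the groups are CD F, CD M, HFD F, HFD M and HFD+E2 M. Mice of the first 4 groups were injected with vehicle. HFD+E2 M are HFD-fed males that received estradiol (E2, 0.5 mg per kg body weight) instead, and injections were given 9 times in the last 3 weeks. The females kept their ovaries, no females with E2 are included, and each library is labelled as a biological replicate from whole frozen colon tissue. The paper's methods name distal tissue and the epithelial layer as the frozen material, and its results place the genes modified by E2 in distal colon.

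Superoxide dismutases convert superoxide into hydrogen peroxide, and peroxidases and catalase then reduce hydrogen peroxide. Sod1 works in the cytosol, Sod2 in the mitochondrial matrix and Sod3 on the outside of cells, where it binds to matrix. Glutathione peroxidases spend glutathione, most peroxiredoxins are recharged by thioredoxin, and Gpx2 is known as the glutathione peroxidase of the gut epithelium, while Gpx3 is the plasma form.

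Gpx1 to Gpx4 are selenoproteins, in which a TGA codon that usually ends translation is read as selenocysteine, the catalytic residue. The 30 bases of coding sequence around this codon are shown because the codon, though little of the sequence beside it, is common to the secreted Gpx3 and the 3 intracellular peroxidases. The TGA is in capitals, the sequences are those of the GENCODE M21 transcripts on GRCm38, and each window lies in 1 coding exon.
Gpx1: gtcgcgtctctcTGAggcaccacgatccgg
Gpx2: gtggcgtcactcTGAggaacaactacccgg
Gpx3: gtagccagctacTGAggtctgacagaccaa
Gpx4: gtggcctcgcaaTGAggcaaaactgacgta
The windows are at chr9:108339439-108339468 (plus strand, exon 1 of 2) for Gpx1, chr12:76795241-76795270 (minus strand, exon 1 of 2) for Gpx2, chr11:54907244-54907273 (plus strand, exon 2 of 5) for Gpx3 and chr10:80054725-80054754 (plus strand, exon 3 of 7) for Gpx4. Gpx1 and Gpx2 shared 24 of 30 bases. Gpx3 shared 14 with each of them and 17 with Gpx4, and Gpx4 shared 17 with Gpx1 and 19 with Gpx2. Coding sequences of the other 6 members held 0 in-frame TGA codons before the stop codon.

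The libraries held 8667177 to 17243712 counts on genes (median 11530915), of which 26.1% to 38.0% came from mitochondrial genes. Each of the 10 genes passed the filter on low counts in every comparison, with 48 to 315 counts for Sod3 and 102 to 806 for Gpx3, so that counting error weighs most on these 2 genes. Tissue composition differed between libraries. The summed TPM (a level corrected for transcript length and library size) of 10 markers of squamous epithelium, which colon mucosa lacks, was 95.7 to 1347 in 4 HFD F and 2 HFD M libraries and at most 12.3 in the other 24. Colonocyte and goblet cell markers were present in every group, at summed TPM of 706 to 2082 and 2576 to 7058. In whole tissue, fewer cells of a type and less RNA per cell cannot be told apart.

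Prdx6, a peroxiredoxin that also has phospholipase activity, had the highest level of the 10 genes, with a mean of 799 TPM over the 30 libraries, and supplied 55.9% to 62.3% of their summed TPM in the group means. Sod1 followed with 133 TPM, then Prdx1 with 85.3, Gpx1 with 84.3, Gpx2 with 72.2, Gpx4 with 57.4, Cat with 27.6 and Sod2 with 22.4 TPM. The secreted enzymes came last, with 17.0 TPM for Gpx3 and 3.25 for Sod3.

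**Figure D1:**
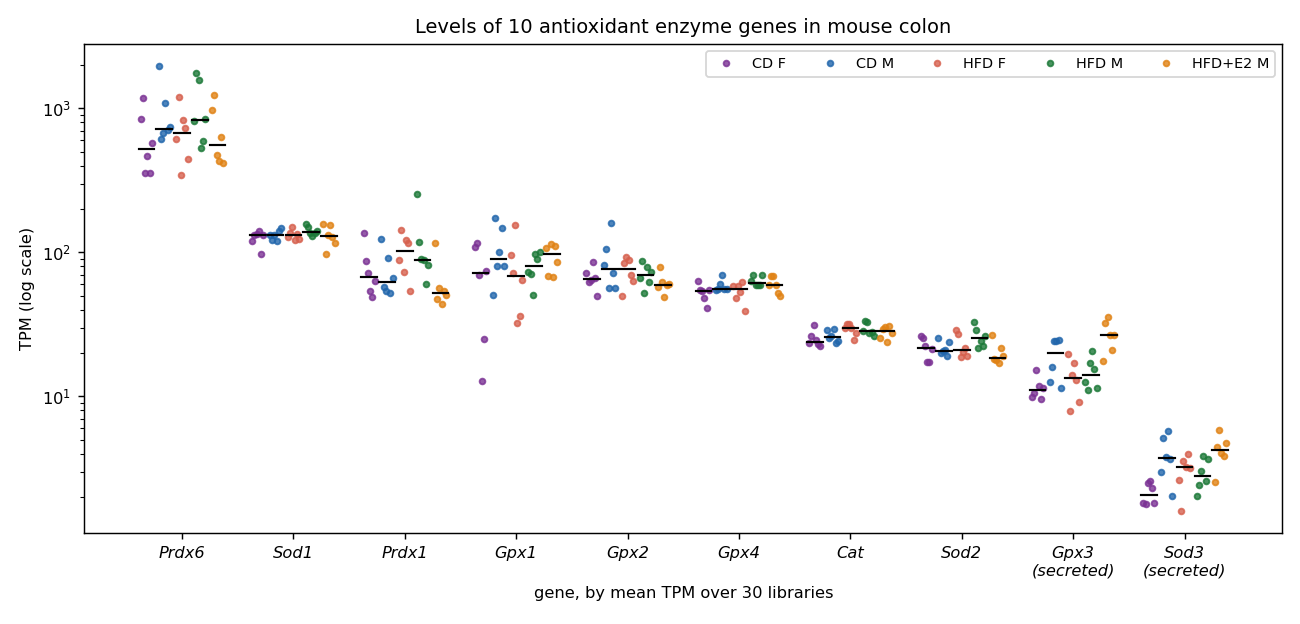
TPM (log scale) of the 10 genes in each of 30 libraries, ordered by mean level and coloured by group, with a black line at the median of 6 libraries. Prdx6 sits above and Sod3 below all other members, and Prdx1, Gpx1 and Gpx2 overlap.

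The middle of this order was not firm. Prdx1 lay above Gpx1 in 12 of 30 libraries, Gpx1 above Gpx2 in 20 and Gpx2 above Gpx4 in 23, while Gpx3 lay above Sod3, and Prdx6 above Sod1, in 30 of 30. It also depended on the unit. With counts divided by annotated exon length, a TPM-like level, Gpx1 (161) followed Prdx6, Sod1 (36.9) lay below Gpx4 (38.4), and Gpx3 (26.6) passed Sod2 (14.7), while Prdx6 stayed first and Sod3 last. For Gpx1 the units differed between libraries too: its TPM varied 13.5-fold and its count scaled to library size (CPM) 2.39-fold, so that comparisons of Gpx1 rest on counts. To a lesser degree this held for Prdx1 (5.79-fold in TPM, 3.03-fold in CPM) and Prdx6 (5.73-fold in TPM, 3.42-fold in CPM).

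The intracellular enzymes differed in how much they varied between mice. Sod1 was 96.7 to 157 TPM over the 30 libraries, with group medians of 130 to 139 TPM, and Cat was 22.3 to 33.2 TPM, with group medians of 23.9 to 29.6. Gpx4, which reduces lipid peroxides in membranes, was 39.4 to 70.1 TPM, with group medians of 54.2 to 61.4. For these 3 genes the highest library was 1.62, 1.49 and 1.78 times the lowest.

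Prdx6 ranged more widely, from 341 to 1956 TPM, with medians of 523 in CD F, 722 in CD M, 670 in HFD F, 833 in HFD M and 554 in HFD+E2 M. In CPM the range of Prdx6 was narrower, from 753 to 2579. Gpx2 was 48.7 to 160 TPM, with group medians of 59.4 to 76.8. Every pair of groups overlapped for both genes. Gpx1 had 703 to 1997 counts and group medians of 68.1 to 96.6 TPM.

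E2 in HFD-fed males was the comparison with the largest number of members past the study's threshold. That threshold is a p below 0.05 together with an absolute log2 fold change above 0.4. The paper does not say whether its p, from DESeq2, is adjusted. Here p is read as unadjusted and comes from edgeR's quasi-likelihood test over all genes. Gpx3 and Sod3, both secreted, were higher with E2 and Prdx1, a cytosolic peroxiredoxin recharged by thioredoxin, was lower. The other 7 members did not pass. These 3 of 10 members stand beside 5.87% of the 15010 genes tested, 2.63% higher and 3.24% lower. None of them had an adjusted p (Benjamini-Hochberg over all genes tested) below 0.05 in edgeR, which 1 gene (0.00666%) had, whereas DESeq2, run as an alternative, gave Gpx3 an adjusted p below 0.05. Gpx3, Sod3 and Prdx1 are genes that the study picked out on these same animals, so their directions are not independent evidence.

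Gpx3 was 11.04 to 20.7 TPM in HFD M (median 14.1) and 17.7 to 35.4 in HFD+E2 M (median 26.6). In 5 of 6 E2-treated males it lay above every vehicle-treated HFD male, and the remaining one lay within their range. Its log2 fold change was 1.03 (SE 0.24, 95% interval 0.56 to 1.495, adjusted p = 0.389), a 2.04-fold difference.

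Sod3 was 2.04 to 3.88 TPM in HFD M (median 2.82) and 2.55 to 5.88 in HFD+E2 M (median 4.27), with 63 to 113 and 78 to 315 counts. The groups overlapped, with 4 of 6 E2-treated males above all HFD M. Its log2 fold change was 0.72 (SE 0.23, 95% interval 0.27 to 1.17, adjusted p = 0.454).

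Prdx1 was 60.5 to 252 TPM in HFD M (median 89.0) and 43.6 to 116 in HFD+E2 M (median 52.4). All but 1 of the E2-treated males lay below every HFD M library. The exception, replicate 1 with 116 TPM, also had the lowest Gpx3 (17.7 TPM) and Sod3 (2.55 TPM) of its group. Sample descriptions number the libraries across groups. The lowest numbers belong to replicate 1 of each group and replicate 2 of CD F, HFD F and HFD M. In these libraries Prdx1 was 7.20 to 7.91 log2 CPM, and in the next number, replicate 3 of HFD M, it was 6.97. No label bounds this set, and it ends where Prdx1 fell, so its high Prdx1 is not separate evidence. HFD+E2 M has only replicate 1 among these libraries and HFD M replicates 1 and 2. The part of sample order in the differences with E2 was not tested. The log2 fold change of Prdx1 was -0.68 (SE 0.20, 95% interval -1.07 to -0.29, adjusted p = 0.454).

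**Figure D2:**
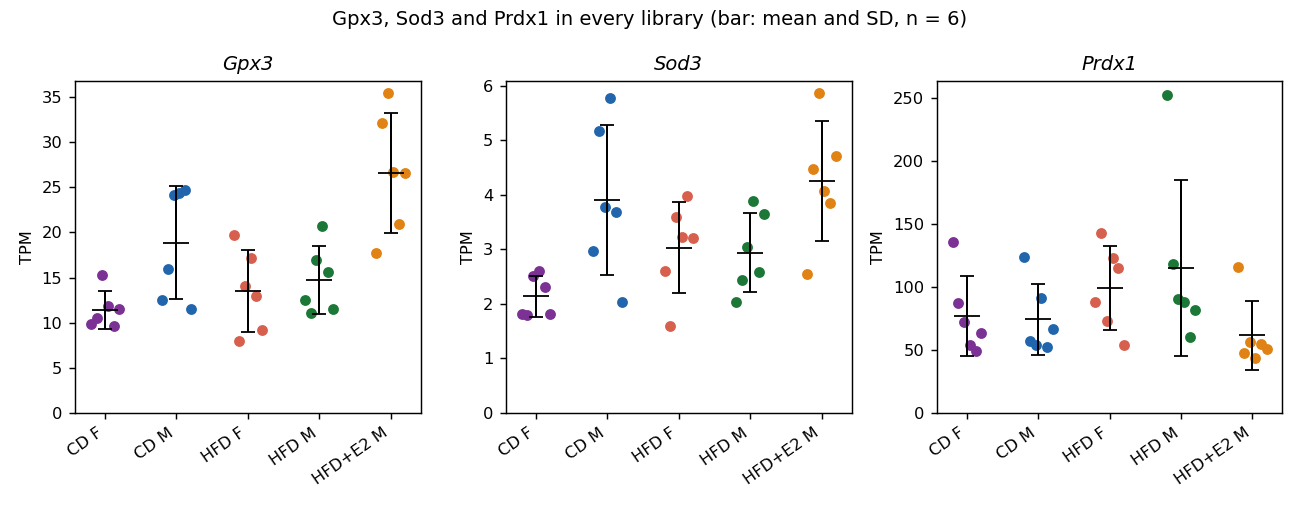
TPM of Gpx3, Sod3 and Prdx1 in each library by group, with mean and SD over 6 libraries. In HFD+E2 M, 5 of 6 libraries exceed every HFD M library for Gpx3, and 5 of 6 lie below every HFD M library for Prdx1.

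The 3 differences passed the study's threshold with each library left out in turn, where Gpx3 was 0.90 to 1.15, Sod3 0.60 to 0.86 and Prdx1 -0.84 to -0.54, and under every other setting tried. On log2(TPM + 1) their values were 0.81, 0.41 and -0.82, on a scale where the median of all genes with a mean of at least 1 TPM was -0.13 and 12.2% of the genes past the threshold were higher with E2, against 44.8% in counts.

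The intracellular enzymes other than Prdx1 did not pass with E2. Sod2, the mitochondrial manganese enzyme, was 21.6 to 32.9 TPM in HFD M (median 25.2) and 17.0 to 26.5 in HFD+E2 M (median 18.5). By TPM, 5 of 6 E2-treated males lay below every HFD M library. On log2 CPM the lowest HFD M library was 5.87, and replicates 1, 2 and 5 of HFD+E2 M (6.08, 6.11 and 5.88) lay above it. Sod2 had a log2 fold change of -0.21 (SE 0.11, adjusted p = 0.501), and the values of Gpx1, Gpx2, Gpx4, Sod1, Cat and Prdx6 lay between -0.13 and 0.16. The 95% interval of Cat, the peroxisomal catalase, ran from -0.15 to 0.35 and that of Sod1 from -0.17 to 0.23. For Prdx6 it ran from -0.46 to 0.20.

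**Figure D3:**
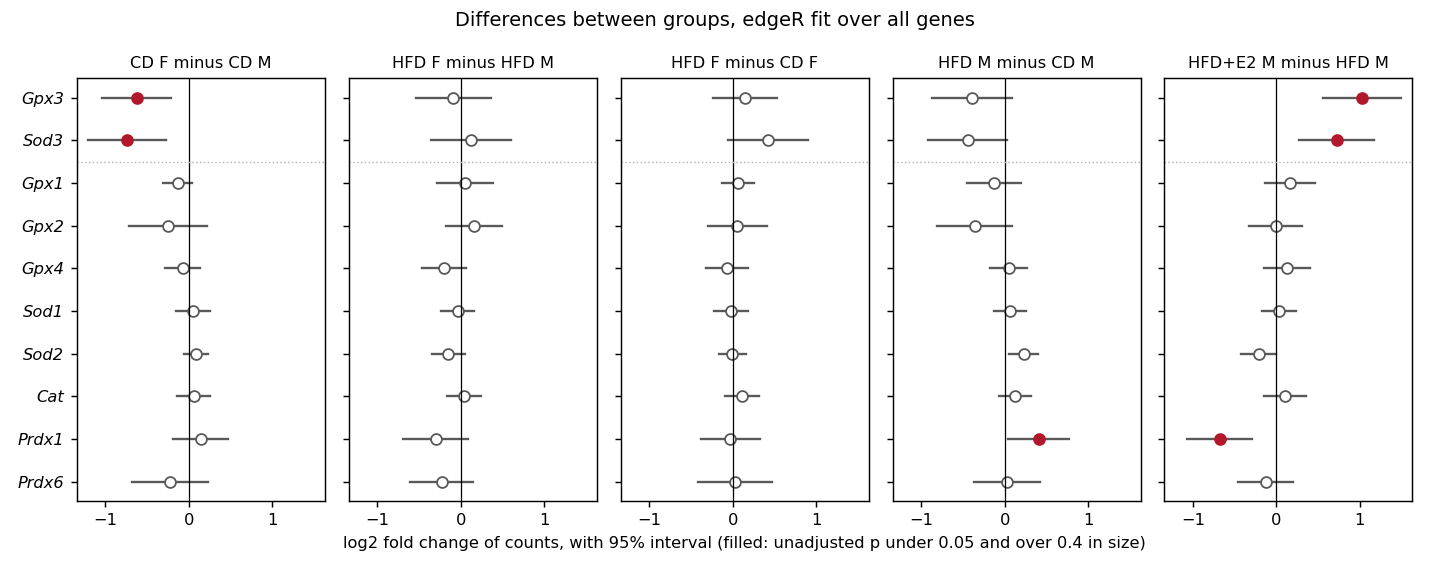
Log2 fold change of counts with its 95% interval for the 10 genes in 5 comparisons, secreted enzymes above the dotted line and filled circles for those past the study's threshold. Gpx3 and Sod3 are filled in CD F minus CD M and in HFD+E2 M minus HFD M, and Prdx1 in HFD M minus CD M and in HFD+E2 M minus HFD M.

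Some markers of other cells passed the study's threshold with E2 as well, beside 5.87% of all genes tested. Of 9 smooth muscle markers 6 had positive values and 1 (Lmod1) passed as higher. Of 7 goblet cell markers 5 had positive values and 3 passed as higher (Muc2, Fcgbp and Spdef). Of 7 macrophage markers 6 had positive values and 2 passed as higher (C1qa and C1qb). Of 5 markers of crypt base and cycling cells 1 had a positive value and 3 passed as lower (Mki67, Top2a and Cdk1). The surface colonocyte markers Slc26a3 and Car4 passed in opposite directions. Cfd and Vwf passed as higher, and Krt14 and Hbb-bs as lower. The summed TPM of the smooth muscle markers overlapped (3754 to 6002 in HFD M, 3453 to 5706 in HFD+E2 M). With a smooth muscle score, the mean log2 CPM of these markers, in the fit, the values were 0.93 for Gpx3, 0.64 for Sod3 and -0.53 for Prdx1. The part of the other markers in these differences was not tested. Without the 2 HFD M libraries with squamous markers, a choice made after seeing the data, the values were 1.07, 0.78 and -0.60.

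On CD, Gpx3 and Sod3 were lower in females than in males. They were 2 of 10 members, against 9.15% of the 14922 genes tested (6.21% lower in females). Neither passed the adjusted threshold, which 435 genes (2.92%) did. No member's groups were free of overlap on log2 CPM in any comparison between groups. Over all genes tested, the groups did not overlap for 2.18% in this comparison, 0.362% for sex on HFD, 0.212% for HFD in females, 0.354% for HFD in males, 0.413% for E2 in HFD males and 0.847% for E2-treated HFD males against CD males.

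Gpx3 was 9.58 to 15.3 TPM in CD F (median 10.998) and 11.5 to 24.7 in CD M (median 20.04). Sod3 was 1.80 to 2.60 TPM in CD F (median 2.06) and 2.03 to 5.78 in CD M (median 3.73). For both genes the groups overlapped, and 6 of 6 females lay below the median male.

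The log2 fold change was -0.62 for Gpx3 (SE 0.21, adjusted p = 0.143) and -0.74 for Sod3 (SE 0.24, adjusted p = 0.123). Both kept the threshold with each library left out. Smooth muscle markers moved with them: 9 of 9 passed the same threshold and were lower in females, 6 of them with adjusted p below 0.05, and their summed TPM was 2481 to 3860 in CD F and 3932 to 6578 in CD M, without overlap. Of the fibroblast markers 4 of 7 were lower in females, at a summed TPM of 329 to 671 and 604 to 991. B cell markers were higher in females for 3 of 6 (median log2 fold change of the list 1.38) and goblet cell markers for 4 of 7, as was Lgr5, while surface colonocyte markers were lower for 3 of 8 and macrophage markers for 2 of 7, as was Cdh5. The part of these markers was not tested. With the smooth muscle score in the fit, neither secreted enzyme passed and the values turned to 0.32 for Gpx3 (adjusted p = 0.420) and 0.23 for Sod3 (adjusted p = 0.684). In that fit Prdx1 was -0.49 (adjusted p = 0.168), past the study's threshold, in place of 0.14, and Prdx6 was -1.13 (adjusted p = 0.0118) in place of -0.23. Because the summed smooth muscle markers did not overlap between the sexes, this fit cannot separate sex from the score. No sex difference is read from its values.

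The 8 intracellular enzymes did not pass the threshold between the sexes on CD. Their log2 fold changes lay between -0.25 (Gpx2, SE 0.24) and 0.14 (Prdx1, SE 0.17). On HFD, 0 of 10 members passed (3.09% of 15179 genes did, and 0.0988% by adjusted p). Gpx3 then was -0.09 (95% interval -0.54 to 0.36) and Sod3 0.13 (-0.35 to 0.60).

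In HFD F, Gpx3 was 12.9 to 19.7 TPM in the 4 libraries with squamous markers and 7.93 and 9.17 in the other two. Without the 6 libraries with squamous markers, the log2 fold change of Gpx3 between the sexes on HFD was -0.67 and that of Gpx4 -0.51, both past the study's threshold (adjusted p = 1.0 for each), whereas Sod3 was -0.14 and did not pass. Only 2 females remained in this fit. The part of the squamous tissue in the level of Gpx3 was not tested.

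The response to HFD was compared with CD in each sex. In males, Prdx1 passed as 1 of 10 members, against 2.9% of 14991 genes (1.25% higher). It was 52.4 to 124 TPM in CD M (median 61.9) and 60.5 to 252 in HFD M (median 89.0), with a log2 fold change of 0.41 (SE 0.19, adjusted p = 0.823). The groups overlapped, and the call was lost without any one of 7 of the 12 libraries (replicates 2, 3, 4 and 5 of CD M and 1, 2 and 6 of HFD M) and under 10 of 15 other settings, with values of 0.14 to 0.55.

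Gpx3 and Sod3 did not pass in males, with log2 fold changes of -0.39 (SE 0.24, adjusted p = 0.832) and -0.44 (SE 0.24, adjusted p = 0.826). For both, 5 of 6 HFD males lay below the median CD male. Sod2 was 0.23 (SE 0.09, adjusted p = 0.802), under the fold minimum, with 6 of 6 HFD males above the median CD male by TPM. Median levels of Sod2 were 20.8 TPM in CD M and 25.2 in HFD M. No gene had an adjusted p below 0.05 in this comparison in edgeR, where 904 (6.03%) had an unadjusted p below 0.05. By adjusted p 26 genes passed in DESeq2.

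In females, 0 of 10 members passed, and 3.67% of 15061 genes did, 0.0199% by adjusted p. Sod3 was 1.60 to 3.98 TPM in HFD F (median 3.21), and by TPM 5 of 6 HFD females lay above every CD female. On log2 CPM replicate 1 of HFD F (2.66) lay below replicates 4 and 5 of CD F (3.09 and 3.07). On log2(TPM + 1) the median of all genes with a mean of at least 1 TPM was 0.07. There 92.3% of the genes past the threshold were higher with HFD, against 80.3% in counts. The log2 fold change of Sod3 was 0.42 (SE 0.24, adjusted p = 0.983), and 0.11 to 0.45 under settings other than leaving out 1 library. Of the fibroblast markers 3 of 7 were higher with HFD, and 4 HFD F libraries held squamous markers. The part of these tissues was not tested. Gpx3 was 0.15 (SE 0.19) and Prdx1 -0.03 (SE 0.18).

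Whether females and males responded differently to HFD was tested as an interaction in the 24 vehicle-treated mice, and Sod3 alone among the 10 members passed the study's threshold (5.18% of 15800 genes). By adjusted p 0 genes passed in edgeR, where 1066 (6.75%) had an unadjusted p below 0.05, and 3 passed in DESeq2. Sod3 was 0.42 with HFD in females and -0.44 in males, and the difference was 0.86 (SE 0.36, adjusted p = 0.679). Of the smooth muscle markers 4 of 9 and of the fibroblast markers 3 of 7 differed in the same direction. With the smooth muscle score in the fit the difference for Sod3 was 0.28, and without the 6 libraries with squamous markers it was 0.60, neither past the threshold. For Gpx3 it was 0.53 (SE 0.33) and for Prdx1 -0.45 (SE 0.28). Leaving out replicate 4 of CD M or replicate 5 of HFD F ended the call for Sod3 (0.73 to 1.01 over all 24 libraries left out).

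HFD+E2 M were also set against CD M, a group that they do not share a diet or treatment with. Gpx3 passed as 1 of 10 members (5.99% of 15109 genes, 2.75% higher, and 0.212% by adjusted p), with a log2 fold change of 0.64 (SE 0.26, adjusted p = 0.398), and 4 of 6 E2-treated males lay above all CD males. The call was lost with 5 of the 12 libraries left out one at a time, replicates 1, 2 and 6 of CD M and 2 and 3 of HFD+E2 M (values 0.51 to 0.76), and under 4 of 14 other settings (0.50 to 0.88 over all of them), the squamous score in the fit among them. Of 7 adipocyte markers 3 of the 4 tested were higher in HFD+E2 M than in CD M (Adipoq, Cidec and Fabp4, median of the list 0.80), and 3 of 5 markers of crypt base and cycling cells were lower (Mki67, Top2a and Cdk1). With the adipocyte score in the fit Gpx3 still passed, and the part of the other markers was not tested. Sod3 was 0.28 (SE 0.26) and Prdx1 -0.26 (SE 0.16). The comparisons share their groups, so the values for the secreted enzymes are only set side by side: for Gpx3 -0.39 with HFD in males, 1.03 with E2 on HFD and 0.64 for E2-treated HFD males against CD males, and for Sod3 -0.44, 0.72 and 0.28.

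As a share of the summed TPM of the 10 genes, Gpx3 and Sod3 together made up 1.41% ± 0.56 (SD, n = 6) in CD F, 1.67% ± 0.70 in CD M, 1.47% ± 0.52 in HFD F, 1.28% ± 0.63 in HFD M and 2.84% ± 1.09 in HFD+E2 M. The E2 group ran from 1.31% to 4.14% and overlapped each of the others. Shares within a family were taken from counts per exon length, since the TPM of Gpx1 varied far more than its counts. This reason does not cover Sod1 and Sod2, whose TPM varied 1.62-fold and 1.93-fold and whose CPM varied 1.51-fold each. The length takes in all annotated exons, 3970 bases for Sod1, of which 462 are coding. Sod1 was 36.9 in this unit and 133 in TPM, and the Sod3 share was larger in this unit. Gpx3 supplied 14.7% ± 3.03 of Gpx1 to Gpx4 in HFD+E2 M, 10.1% ± 2.70 in CD M, 8.74% ± 2.12 in HFD M, 8.06% ± 2.31 in HFD F and 7.52% ± 1.24 in CD F. Sod3 supplied 13.3% ± 4.05 of Sod1 to Sod3 in HFD+E2 M, 11.9% ± 4.34 in CD M and 7.16% to 9.35% in the other three. The size of these shares depended on the unit: from the deposited TPM they were 11.1% for Gpx3 and 2.85% for Sod3 in HFD+E2 M, and 5.98% to 7.10% and 1.45% to 2.53% in the other groups.

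**Figure D4:**
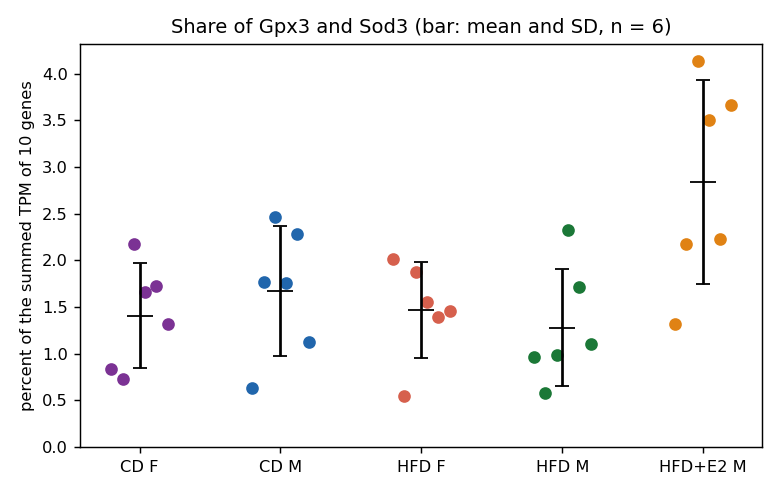
Percent of the summed TPM of the 10 genes that came from Gpx3 and Sod3, in each library by group, with mean and SD over 6 libraries. HFD+E2 M has the highest group mean (2.84%), and its libraries overlap those of the other groups.

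Within groups the secreted enzymes varied from library to library in the same direction as some intracellular enzymes and in the opposite direction to others. Deviations of log2 CPM from the group mean were correlated over the 30 libraries for the 45 pairs of members, with permutations of libraries within groups. Such permutations take no account of sample order. Prdx1 was 7.20 to 7.91 log2 CPM in the lowest-numbered libraries named above and 6.31 to 7.01 in those that followed. In the last ones, replicate 6 of CD F, CD M and HFD M, it was 7.11 to 7.26. The part of sample order in the correlations was not tested. Gpx3 varied together with Sod3 (Pearson's r = 0.71, permutation p = 0.00017, adjusted p = 0.00101; Spearman's rho = 0.61, permutation p = 0.00181, adjusted p = 0.0074), and r was 0.60 without the 2 most extreme libraries. Prdx1 and Prdx6 had an r of 0.80 (permutation p = 1e-05, the smallest possible, adjusted p = 0.000225) and a rho of 0.81 (permutation p = 1e-05, adjusted p = 0.000225), with 0.82 without the extremes.

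Sod3 and Prdx1 had an r of -0.75 (permutation p = 2e-05, adjusted p = 0.0003) and a rho of -0.54 (permutation p = 0.00288, adjusted p = 0.00909), with -0.65 without the extremes. For Gpx3 and Prdx6 these were -0.70 (permutation p = 0.00011, adjusted p = 0.000825), -0.63 (permutation p = 0.00053, adjusted p = 0.00397) and -0.60. Of the 16 pairs of a secreted and an intracellular enzyme, 7 had a positive and 5 a negative r with an adjusted p below 0.05, and over all 45 pairs 20 did. The share of such pairs among other genes was not computed, so these counts are not read as particular to these enzymes.

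The positive pairs joined Gpx3 and Sod3 to Gpx1, Gpx4 and Cat, and Sod3 to Gpx2. Sod3 and Gpx1 had an r of 0.69 (permutation p = 1e-05, adjusted p = 0.000225) and a rho of 0.76 (permutation p = 1e-05, adjusted p = 0.000225), with 0.77 without the extremes. For Gpx3 and Gpx4 these were 0.65 (permutation p = 0.0008, adjusted p = 0.00307), 0.64 (permutation p = 0.00138, adjusted p = 0.0069) and 0.58. The r of the other 5 positive pairs was 0.48 to 0.59. The negative pairs joined Gpx3 and Sod3 to Prdx1 and Prdx6, and Sod3 to Sod2 (r = -0.51, permutation p = 0.00701, adjusted p = 0.0175; rho = -0.51, permutation p = 0.00766, adjusted p = 0.0203; r = -0.54 without extremes).

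The scores of 12 lists of cell type markers were compared with the members in the same way (120 relations). The smooth muscle score went up with Gpx3 (r = 0.72, permutation p = 6e-05, adjusted p = 0.0024; rho = 0.68, permutation p = 0.0002, adjusted p = 0.006; r = 0.67 without extremes) and down with Prdx6 (r = -0.73, permutation p = 1e-05, adjusted p = 0.0012; rho = -0.76, permutation p = 1e-05, adjusted p = 0.0012; r = -0.67 without extremes). For Sod3 r was 0.64 (permutation p = 0.00071, adjusted p = 0.017) and rho 0.59 (permutation p = 0.00182, adjusted p = 0.0437), and r was 0.61 without the extremes. For Prdx1 r was -0.69 (permutation p = 0.00012, adjusted p = 0.0036) and rho -0.70 (permutation p = 9e-05, adjusted p = 0.0052), and r was -0.65 without the extremes. Prdx6 also went up with the goblet cell score (r = 0.68, permutation p = 4e-05, adjusted p = 0.0024; rho = 0.68, permutation p = 0.00013, adjusted p = 0.0052; r = 0.61 without extremes). No other relation had an adjusted Pearson p below 0.05.

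**Figure D5:**
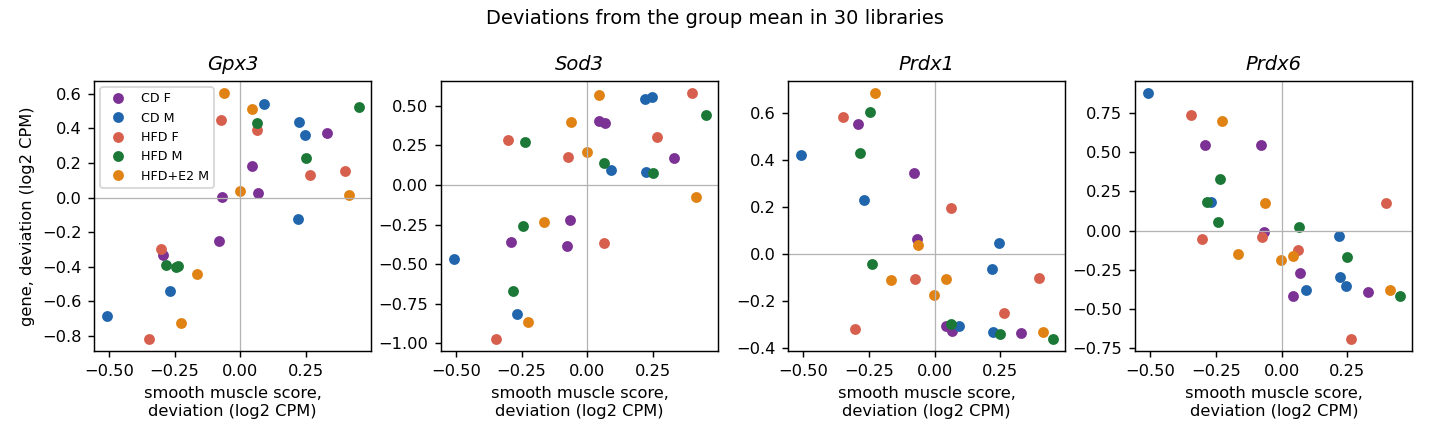
Deviation of each library from its group mean in the smooth muscle score (horizontal, log2 CPM) and in Gpx3, Sod3, Prdx1 and Prdx6 (vertical, log2 CPM), coloured by group. Gpx3 and Sod3 go up with the score (r = 0.72 and 0.64), and Prdx1 and Prdx6 go down (r = -0.69 and -0.73).

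Other genes of peroxide metabolism were read from 9 lists with 69 genes, of which 65 passed the filter on low counts. By adjusted p, 1 of 65 passed between the sexes on CD (Aoc3), beside 2.92% of all genes, and 0 in every other comparison. With E2 in HFD males, 5 of 65 passed the study's threshold, 1 higher and 4 lower, which is 7.69% beside 5.87% of all genes. Gpx7, a glutathione peroxidase of the endoplasmic reticulum, was higher (0.78, SE 0.31). Nox1, the NADPH oxidase of colon epithelium, was lower (-0.85, SE 0.24), as were Prdx4, the peroxiredoxin of the endoplasmic reticulum (-0.48, SE 0.20), and the Nrf2 pathway genes Nqo1 and Me1 (-0.48, SE 0.22, and -0.49, SE 0.21). No gene of the lists for the thioredoxin and glutaredoxin system, glutathione supply, selenoprotein synthesis, copper delivery or peroxisomes passed with E2.

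With HFD in females, 4 of 65 passed (6.15%, beside 3.67% of all genes), all higher, as were 80.3% of all genes past the threshold. They were the heme oxygenase Hmox1 (0.80, SE 0.28), the cystine transporter Slc7a11 (0.74, SE 0.34), and the dual oxidase Duox2 with its maturation factor Duoxa2 (0.40, SE 0.15, and 0.46, SE 0.16). Squamous markers were present in 4 HFD F libraries, and the part of this tissue was not tested. In males 1 of 65 passed (1.54%, beside 2.9% of all genes), the amine oxidase Aoc3, which was lower (-0.53, SE 0.16). Aoc3 was also the 1 of 65 (1.54%, beside 9.15% of all genes) that differed between the sexes on CD, at -0.57 in females (SE 0.13, adjusted p = 0.0283), and with Gpx7 it was 1 of the 2 genes (3.08%, beside 5.18%) whose response to HFD differed between the sexes (0.75, SE 0.22, and 1.001, SE 0.42). Smooth muscle markers moved in the same directions, 9 of 9 lower in females on CD and 4 of 9 past the threshold in the interaction. The part of smooth muscle in the values of Aoc3 was not tested.

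On HFD, 3 of 65 differed between the sexes (4.62%, beside 3.09% of all genes), Gpx7 (0.68, SE 0.30) and Duox2 (0.50, SE 0.18) being higher and the oxidase Nox4 lower in females (-0.72, SE 0.23). For E2-treated HFD males against CD males 4 of 65 passed, which at 6.15% is near the 5.99% of all genes, the NADPH oxidase subunit Ncf1 (0.52, SE 0.24) and the selenium carrier Selenop (0.42, SE 0.15) higher and Nqo1 (-0.52, SE 0.23) and the mitochondrial thioredoxin reductase Txnrd2 (-0.45, SE 0.21) lower. Among the genes of these lists, high levels were found for Selenop (mean 797 TPM), Fth1 (449 TPM), Txnip (427 TPM) and Txn1 (155 TPM), all above Sod1. Gpx5 and Gpx6 were at or below 0.07 TPM in every library.

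The genes whose log2 CPM ranked most like a member's over the 30 libraries, among 14905 genes, were Ston1, Dapk1 and Rpl35 for Gpx3 (Spearman's rho = 0.81, 0.78 and 0.78), Hcfc1r1, Gsk3a and Lmf2 for Sod3 (0.87, 0.85 and 0.84), and Pnp, Psme2 and Snrpd2 for Prdx1 (0.90, 0.87 and 0.85). For Prdx6 they were Slc25a11, Pnp and Endod1 (0.86, 0.86 and 0.85), for Cat Polr2j, Abracl and Ss18 (0.84, 0.82 and 0.78), and for Gpx1 Dnal4, Lmf2 and Gsk3a (0.80, 0.77 and 0.76). These values describe libraries that share group, depth and tissue composition. Lmf2 and Gsk3a stood on the lists of both Gpx1 and Sod3, and Pnp on those of both peroxiredoxins.

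RefSeq promoters (GRCm38.p6, 300 bases around the start) were given for 8 of the 10 members, without Sod3 and Prdx6. The core of the antioxidant response element, TGACNNNGC on either strand, occurred in 2 of 8, Prdx1 and Sod1, and in 12.4% of all 32851 promoters. These stretches are shown because Prdx1 is the intracellular member that differed with E2 and Sod1 one that did not, with the match in capitals.
Prdx1: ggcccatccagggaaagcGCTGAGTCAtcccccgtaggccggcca
Sod1: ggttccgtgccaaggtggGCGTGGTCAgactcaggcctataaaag
They lie at chr4:116685448-116685492 and chr16:90220688-90220732, both on the plus strand, with the match starting 133 and 56 bases before the start. The estrogen response element (GGTCA and TGACC with 3 bases between them) occurred in 0 of 8 member promoters and 0.07% of all promoters, and the E-box CACGTG in 0 of 8 and 7.15%.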

How the data were processed

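Total RNA of frozen colon was depleted of ribosomal RNA and sequenced from a stranded library of each mouse. Alignment by the authors used STAR and the mm10 (GRCm38) build, and they deposited raw read counts per gene from featureCounts. They also deposited TPM values from StringTie, which were used for levels. The strand setting of the counting is not given in the sources used here, so reads of Gpx2 and of Fntb, which overlaps it on the other strand, may not be told apart. Its pseudogene Gpx2-ps1 had a mean of 12.4 TPM and 3.13 counts.

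Counts were fitted per comparison to its own groups with edgeR 4.0.16 in R 4.3.3 (filterByExpr, TMM, robust quasi-likelihood F-test), and members were read from the fit over all genes. The test, edgeR, was checked on simulated data. SE values follow from the F statistic and 95% intervals use 1.96 SE, a normal approximation that can be narrower than the test allows. For Sod2 with E2 the interval (-0.42 to -0.0075) excludes 0, while the quasi-likelihood F-test gave an unadjusted p of 0.057. Correlations used 100000 permutations. Log2 CPM used a prior count of 2, and scores are the mean log2 CPM of markers with a mean over 0.1 CPM. The counts of 30 of 30 libraries matched their own TPM values best, and 0 pairs of libraries were identical. Depth ranged from 8667177 to 17243712 counts, and intervals concern the mean difference between groups. Alternatives were DESeq2 1.42.0, its size factors, no mitochondrial genes, other filters, a joint fit of the 30 libraries, a replicate block, no fold minimum, marker scores as covariates, limma 3.58.1 on log2 TPM, exon-length scaled counts and leaving out libraries.

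The members, gene lists and tests were chosen with earlier results of these data known. Named genes were the 10 members, the genes of pathway lists past the study's threshold, up to 3 genes per list with the highest TPM, and the 3 genes most like each member.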

Additional observations from a re-analysis of the deposited data

Results flagged for a closer look

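Of 50 tests for a library far from its group (10 genes in 5 groups of 6), 1 was positive, where chance gives about 1 in 20. Prdx1 was 116 TPM (1874 counts) in replicate 1 of HFD+E2 M and 43.6 to 56.3 TPM in the other 5 libraries, and on log2 CPM its gap to the next library was 0.636 of the range of the group. Without this library the log2 fold change of Prdx1 with E2 was -0.84. It was also the only library of its group among the lowest-numbered samples named above. That set has no labelled bound and ends where Prdx1 fell, so its high Prdx1 is not separate evidence.

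The response of Sod3 to HFD differed between females and males by 0.86 on the log2 scale in the interaction test (edgeR, adjusted p = 0.679). It lay between 0.28 and 0.88 under the alternatives other than leaving out a single library.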

How the results depend on the processing

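Of 1990 member tests under an alternative, 1931 stayed on their side of the study's threshold, 31 fell below it and 25 passed it. Of the 1931, 161 changed sign without passing in either fit and 1770 kept their sign. Another 3, which passed in one of the fits, changed sign. They were the differences between the sexes on CD with the smooth muscle score in the fit, at 0.32 for Gpx3, 0.23 for Sod3 and -0.49 for Prdx1, whose cause was not tested. The count of members with HFD in males was 1, and it was 0 without a filter on low counts, with all 30 libraries in one fit, with the replicate block, with the smooth muscle or squamous score, in the fits of log2 TPM and without the libraries with squamous markers (chosen after seeing the data). It was 2 without a fold minimum and with the adipocyte score. For E2-treated HFD males against CD males it was 0 without a filter, in counts or log2(TPM + 1), and on log2(TPM + 0.1), and 2 with the smooth muscle or adipocyte score. For the interaction it was 0 with the smooth muscle or squamous score. On HFD, 1 member (Prdx1) differed between the sexes with the smooth muscle score and 2 (Gpx3 and Gpx4) without the libraries with squamous markers. In females 1 (Sod3) passed with HFD on log2(TPM + 0.1). By adjusted p, DESeq2 called 1 member with E2 (Gpx3). With the smooth muscle score, 1 member (Prdx6) passed between the sexes on CD, in a fit that cannot separate sex from the score. Leaving out 1 library gave 3 members in each case for E2 and 2 for sex on CD (0 to 1 by adjusted p), 0 to 2 for sex on HFD and for E2-treated HFD males against CD males, 0 to 1 for HFD in females, and 0 to 3 for HFD in males and for the interaction. From counts per exon length, the share of Gpx3 and Sod3 was 2.24% in CD F, 3.17% in CD M, 2.50% in HFD F, 2.27% in HFD M and 4.68% in HFD+E2 M.

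The deviations of 30 of 60 pairs of libraries with the same replicate number correlated over 0.1 (mean 0.11), against 81 of 300 pairs with different numbers (mean -0.02), and 9 of 30 libraries were most like one of their own number. Same-numbered libraries were thus somewhat more alike, but not in every pair, and the labels do not say that a number marks a shared litter or batch, so the number was not used as a pairing. With the replicate block, Gpx3 and Sod3 passed the adjusted threshold between the sexes on CD (2 members) and the study's threshold in the interaction (2 members), and the adjusted calls over all genes for sex on CD were 941, against 435 without it and 770 in DESeq2. Counts of 48 to 315 limit the precision of Sod3.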
